A study of Mus musculus with 7 samples.

Results

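Transcripts of 10 heat shock chaperones, out of 48526 genes listed, were followed in the cardiac region of single mouse embryos: Hspa1a, Hspa1b, Dnajb1, Hsph1, Hspa8, Hsp90aa1, Hsp90ab1, Hspb1, Hspe1 and Bag3. They were picked by symbol as chaperones after higher values of Hspa1b, Dnajb1 and Hsph1 had been seen in 2 mutants, so their mutant and control values are given as a description. Calls on that contrast are printed only beside the share over all genes, and nothing is read from them. All 10 entered the set of 15599 genes tested, for which 3 or more libraries had to reach a normalised count of 10. Hspa1a passed only through its values in the mutants, since 1 control reached that level.

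The libraries came from microdissected cardiac regions at embryonic day 8.5, when the heart tube loops, with 1 library per embryo. The 4 controls were Hoxb1 +/+ ; Nodal flox/+ and the 3 mutants were Hoxb1 Cre/+ ; Nodal flox/nul, all on a mixed genetic background. Both groups therefore carried a conditional allele of Nodal, the secreted signal of left identity, and the mutants in addition carried a null Nodal allele and a Cre recombinase at the Hoxb1 locus, which acts in cells that have used that locus and in their descendants. No group carried the Cre with an intact Nodal, so the effects of Cre, of the altered Hoxb1 allele and of Nodal cannot be told apart. Controls 1 and 3 and mutants 2 and 3 were female and the other 3 embryos male; the file headers place all females at E8.5e and all males at E8.5f, so sex and this substage cannot be told apart either.

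The heat shock response is switched on by Hsf1, a transcription factor held inactive by chaperones until unfolded proteins occupy them. Active Hsf1 binds arrays of short inverted GAA units, called heat shock elements, and raises the transcripts of HSP70, HSP40, HSP110, HSP90 and small heat shock proteins. Hspa1a and Hspa1b are kept low in most unstressed cells, whereas Hspa8, Hsp90ab1 and Hspe1 serve every cell, and Hspb1 and Bag3 are abundant in heart and skeletal muscle.

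Recovered reads ran from 7155994 to 15122057 per library, and every RNA integrity number was above 9 per the labels. Nodal was found with 9, 3, 6 and 0 reads in the 4 controls, in order, and with none in any mutant, so it was near the floor in both groups. Hoxb1 stood at 546 to 726 normalised reads in controls and 315 to 401 in mutants. The 16 cardiac muscle markers were all detected, with summed levels of 51730 to 153421 in controls and 56745 to 118879 in mutants, and none was at 0 throughout a group. Neural tube markers summed to 2158 to 7376 in controls and 2609 to 6602 in mutants, highest in control 3 and mutant 3. Nothing in the labels says that embryos were littermates. The p-values of group differences below set each difference against the spread between these embryos.

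The promoter windows of 4 members are shown because they carry, or lack, exact runs of the GAA units described above. RefSeq windows of mouse build GRCm38.p6, from 250 bases before to 50 after a start site, were matched to 7 of the 10 members. Capitals mark runs of alternating GAA and TTC units spaced every 5 bases (GAANNTTC or TTCNNGAA, a pattern that reads alike on both strands; longer runs contain the shorter ones). The windows below are Hspa1b at chr17:34959189-34959488 on the minus strand, Dnajb1 at chr8:83607925-83608224 on the plus strand, Hsph1 at chr5:149636287-149636586 on the minus strand and Hspe1 at chr1:55087898-55088197 on the plus strand.
Hspa1b: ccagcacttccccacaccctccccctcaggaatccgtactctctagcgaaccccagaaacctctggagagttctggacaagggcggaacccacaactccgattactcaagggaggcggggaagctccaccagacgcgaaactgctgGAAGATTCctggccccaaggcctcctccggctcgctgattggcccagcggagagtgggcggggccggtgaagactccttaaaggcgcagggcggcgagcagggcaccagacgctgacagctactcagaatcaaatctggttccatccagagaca
Dnajb1: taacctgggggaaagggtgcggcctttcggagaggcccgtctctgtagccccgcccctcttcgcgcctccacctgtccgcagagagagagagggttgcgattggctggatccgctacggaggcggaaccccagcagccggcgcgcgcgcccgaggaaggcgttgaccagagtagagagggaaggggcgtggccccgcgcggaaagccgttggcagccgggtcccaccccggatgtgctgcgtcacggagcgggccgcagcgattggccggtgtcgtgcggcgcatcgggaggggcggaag
Hsph1: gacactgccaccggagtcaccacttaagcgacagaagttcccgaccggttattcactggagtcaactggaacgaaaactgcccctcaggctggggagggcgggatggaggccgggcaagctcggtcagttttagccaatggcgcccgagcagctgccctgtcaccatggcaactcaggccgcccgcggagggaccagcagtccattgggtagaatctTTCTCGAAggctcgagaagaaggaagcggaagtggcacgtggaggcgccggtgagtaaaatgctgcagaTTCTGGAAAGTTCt
Hspe1: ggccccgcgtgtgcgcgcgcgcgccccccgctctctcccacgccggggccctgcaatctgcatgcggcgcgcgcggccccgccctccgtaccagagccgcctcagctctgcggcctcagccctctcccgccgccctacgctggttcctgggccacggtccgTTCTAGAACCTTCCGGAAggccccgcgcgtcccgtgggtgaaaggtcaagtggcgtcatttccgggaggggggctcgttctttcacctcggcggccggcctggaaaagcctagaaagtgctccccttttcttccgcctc

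At least 2 such units stood in 15.1% of 32851 mouse promoter windows and at least 3 in 0.603%. Of the 7 matched members, 6 held at least 2 units and 2 held at least 3: Hspe1 with 4 units from 89 bases before its start and Hsph1 with 3 units beginning 36 bases after it. Hspa1b and Hspa1a shared the same 2-unit run, GAAGATTC, 104 bases before the start, and Bag3 and Hspb1 each held GAAGTTTC. Dnajb1 had none in either of its windows, which says only that these letters are not there. The CCAAT box, read on both strands, stood in 37.4% of windows; Hspa1b held 1, Dnajb1 2 and Hsph1 2, while Hspe1, Hspb1 and Bag3 held none.

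Hspa1a and Hspa1b are a near-identical pair on chromosome 17, at 34969190 to 34972156 and 34956436 to 34959238 on the minus strand (GENCODE M21, build GRCm38, as for all gene positions below). Their coding sequences matched at 1918 of 1926 aligned bases (99.6%) and their promoter windows at 296 of 300. Of all stretches of 130 bases, the read length, in the transcript, 43.0% of Hspa1a and 43.9% of Hspa1b recur in another gene's transcripts, so the authors' counting could split or drop their reads. The same share was 57.7% for Hspa8, 40.2% for Hsp90aa1, 38.2% for Hspb1 and 16.7% for Hspe1, with Gm15459, Gm12346 and Hsp25-ps1 as the main copies of the first 3, and 0% for Dnajb1, Hsph1, Hsp90ab1 and Bag3. These shares are of single stretches, whereas the reads were paired, so how far the counts of those 6 genes are uncertain was not tested. Whether reads were counted by strand is not stated, and Hspe1 shares 112 exon bases with the opposite-strand Hspd1, its chaperonin partner.

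Per length, the cytosolic HSP90 pair and Hspa8 had the highest levels of the 10 members and the inducible HSP70 pair the lowest. In controls, reads scaled by exon length and library total (RPKM) averaged 1299 ± 69.1 for Hsp90ab1 (SD, n = 4 throughout this order), 429.6 ± 57.0 for Hspa8, 343.6 ± 21.3 for Hsp90aa1 and 127 ± 10.04 for Hspe1. Below them stood Hsph1 at 45.0 ± 5.10, Bag3 at 39.7 ± 8.46, Hspb1 at 26.9 ± 14.4 and Dnajb1 at 22.0 ± 1.92 RPKM. Among these 4, the control ranges of each gene and the next in the order overlapped, and no other neighbours in the order did. The exon length used joins all annotated exons of a gene. For Hsph1 it is 7266 bases, beside 3802 in its longest protein-coding transcript, and for Bag3 it is 2562 in both. Levels per length and these overlaps rest on that choice. Hspa1b at 1.02 ± 0.450 and Hspa1a at 0.150 ± 0.136 RPKM were last. Relative spread among controls was widest for Hspa1a (CV 91.1%), Hspb1 (54.9%) and Hspa1b (45.2%) and narrowest for Hsp90ab1 (4.63%) and Hsp90aa1 (5.57%).

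Hspa1b is the stress-inducible HSP70, and on the log2 scale used here its difference between group means was wider than that of the other 9 members. Controls 1 to 4 gave 32.0, 54.1, 22.4 and 22.9 normalised reads and mutants 1 to 3 gave 208, 222 and 29.9. Mutants 1 and 2 thus stood at 6.33 and 6.77 times the control mean, and mutant 3 at 0.909 times, inside the control range. Group means were 32.8 ± 14.8 (SD, n = 4) and 153 ± 107 (SD, n = 3), a log2 fold change of 1.83 with a standard error of 0.69. Without mutant 3 the value was 2.77, and without mutant 1 or mutant 2 it was 1.39 or 1.34.

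Its twin Hspa1a stood at a far lower level, with 4.32, 11.9, 1.12 and 3.27 normalised reads in controls 1 to 4. In mutants it gave 47.8, 46.4 and 0, where 0 reads in mutant 3 allows up to 2.71 normalised reads (a floor of 3 reads, counting error only). The values of mutants 1 and 2 were 9.28 and 9.00 times the control mean, wider ratios than those of Hspa1b, and again mutant 3 was not above the controls. The log2 fold change was 1.41 (SE 1.36), from 0.46 without mutant 1 to 3.27 without mutant 3. Reads counted for both copies, added together so that a split between them does not matter, came to 42, 72, 21 and 16 for the controls, against 262, 353 and 33 for the mutants. These sums are not scaled for depth, and control 4 was the shallowest library and mutant 2 the deepest.

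Dnajb1, the HSP40 cochaperone that hands clients to HSP70 and stimulates its ATPase (chromosome 8, 83608193 to 83612653), shares no stretch of 130 bases with another gene. Its normalised counts in controls were 879, 849.9, 701 and 811, against 1496, 1477 and 799.6 in mutants. Mutants 1 and 2 exceeded the highest control by factors of 1.70 and 1.68, and mutant 3 sat among the controls. The log2 fold change was 0.58 (SE 0.21) and 0.88 without mutant 3.

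Hsph1, the HSP110 that exchanges nucleotides on HSP70 (chromosome 5, 149614287 to 149636376), again had mutants 1 and 2 above all controls and mutant 3 among them. It gave 4121, 4164, 3341 and 3429 normalised reads in controls, then 5896, 5991 and 3791 in mutants. The groups overlapped through mutant 3 alone. Its log2 fold change was 0.45 (SE 0.17) and 0.67 without mutant 3. The values of Hspa1b, Dnajb1 and Hsph1 in mutants 1 and 2 are those that led to the choice of the list.

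**Figure D1:**
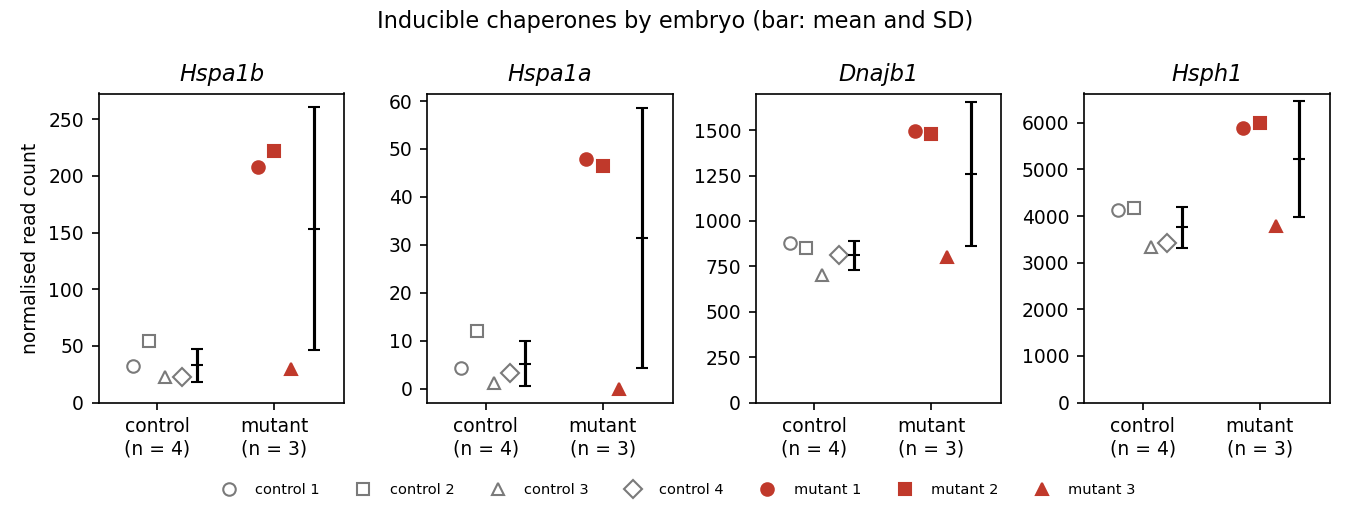
Normalised read counts of the inducible chaperones in each embryo, with the mean and SD of the 4 controls and 3 mutants as bars. In Hspa1b, Dnajb1 and Hsph1 mutants 1 and 2 lie above every control and mutant 3 lies within the control range.

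Hspa8, the constitutive HSP70 (chromosome 9, 40800984 to 40810087), was high in every library. Its control counts were 24285, 19110.4, 22245 and 19204, and mutants 1 to 3 had 29324, 27387 and 17918. Mutants 1 and 2 were above and mutant 3 below all controls. The log2 fold change was 0.21 (SE 0.17), but −0.07 in female embryos alone.

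The cytosolic HSP90 pair, which folds kinases and receptors, had smaller differences. Hsp90aa1, the more inducible form (chromosome 12), gave 16698, 15620.2, 15048 and 14731 normalised reads in controls and 18166, 18829.6 and 14951 in mutants, a log2 fold change of 0.15 (SE 0.09). Hsp90ab1, the steady form on chromosome 17, gave 42515, 43513, 46707 and 46346 in controls and 47773, 44930.0 and 44786 in mutants, a change of 0.03 (SE 0.06). For Hsp90aa1 mutants 1 and 2 again lay above all controls, while for Hsp90ab1 the groups overlapped with only mutant 1 slightly above. Hspe1, the mitochondrial cochaperonin, had control counts of 2045 to 2358 and gave 2363, 2407 and 2120.3 in mutants (log2 fold change 0.10, SE 0.07).

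Bag3, which links HSP70 to small heat shock proteins and to autophagy in muscle, gave 1182, 1373, 791 and 1339.8 normalised reads in controls. Mutants 1 to 3 gave 1544.5, 1493 and 1020.3, with mutants 1 and 2 above all controls and mutant 3 among them (log2 fold change 0.22, SE 0.22). That value was 0.04 without control 3 and 0.41 without mutant 3. Hspb1, the small heat shock protein that keeps unfolding proteins soluble, did not share this order. It stood at 282, 358, 109.6 and 535 in controls and 517, 194 and 205 in mutants, and the groups overlapped (log2 fold change −0.02, SE 0.54).

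**Figure D2:**
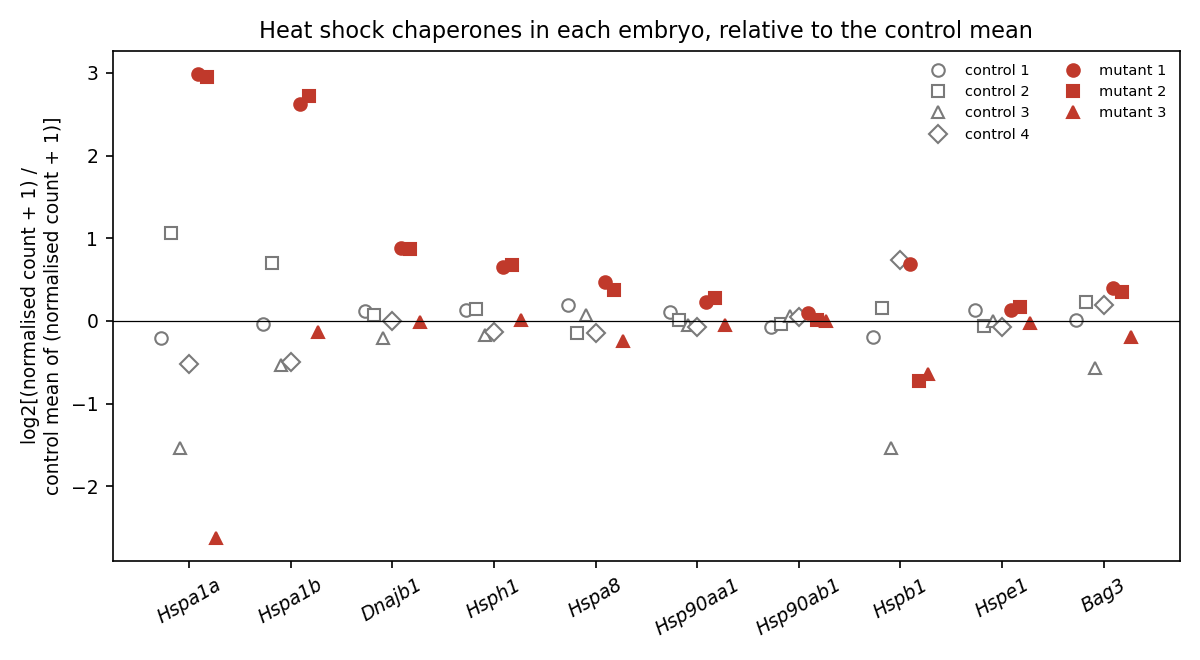
Each chaperone in each embryo as the log2 ratio of its normalised count plus 1 to the control mean (1 point per embryo; open symbols controls, filled symbols mutants). Mutants 1 and 2 stand above the controls for most genes, whereas mutant 3 does not, and Hspb1 scatters in both groups.

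Counted over the members, mutant 1 lay above all 4 controls for 9 of 10 and mutant 2 for 8 of 10, beside 19.7% and 18.8% of all 15599 genes tested. Mutant 3 was above all controls for 0 of 10, beside 18.3%, and below them for Hspa1a and Hspa8, beside 13.4%. No member had all 3 mutants above all 4 controls, beside 3.7% of all genes. In limma's fit across all genes 2 genes (0.0128%) passed an adjusted p of 0.05, and 0 of the 10 members did; 3 had an unadjusted p under 0.05, the same 3 whose values chose the list. Neither edgeR, DESeq2 nor limma-voom called a member. Nothing is read from these counts, because the contrast chose the genes.

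The members' reads made up 0.916% of the library in mutant 1 (95% Wilson interval 0.911 to 0.922) and 0.895% in mutant 2 (0.890 to 0.899). In mutant 3 the share was 0.750% (0.745 to 0.755), and in the controls it was 0.808%, 0.749%, 0.812% and 0.756%. The intervals cover counting error only. Mutants 1 and 2 differed between themselves in tissue markers: cardiac markers summed to 118879 and 56745, neural tube markers to 2609 and 4698, and yolk sac endoderm markers to 1422 and 17952, and the part of tissue composition in the shared values was not tested. The labels number the embryos without giving a meaning, and these numbers were split here into a lower and an upper range. Mutants 1 and 2 fell in the lower range with controls 1 and 2. Within that range the log2 difference between mutants and controls was 2.34 for Hspa1b, 0.78 for Dnajb1 and 0.52 for Hsph1, and within the other, with mutant 3 alone, 0.38, 0.08 and 0.16. In that second range 5 members had lower values in the mutant, with Hspa1a at −1.59, Hspb1 at −0.24, Hspa8 at −0.21, Hsp90ab1 at −0.05 and Bag3 at −0.01.

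Sex was not used to choose the members, so the 2 female and 2 male controls were compared by limma over all genes. Here 5 genes (0.0321%) passed, with Xist higher in females (0.00641%) and 4 Y-linked genes higher in males, and 0 of the 10 members did. At an unadjusted p under 0.05 stood 2 members, Hspb1 and Hspa8, beside 3.84% of all genes. Hspb1 averaged 196 normalised reads in females and 447 in males (log2 difference −1.31, SE 0.46, limma adjusted p = 0.974). Bag3 averaged 986 and 1357 (log2 difference −0.49, SE 0.20, limma adjusted p = 0.974), and Hspa8 23265 and 19157 (0.28, SE 0.11, limma adjusted p = 0.974). The sexes did not overlap for 4 of 10 members, Hspb1, Bag3, Hspa8 and Hspe1, beside 33.3% of all genes. With all 7 embryos and genotype as a covariate the log2 difference was −1.33 for Hspb1 (limma adjusted p = 0.403), −0.42 for Bag3 (limma adjusted p = 0.453) and 0.01 for Hspa8 (limma adjusted p = 0.995). Leaving out control 1 left 1 female, assumed to vary like the other group, and then Hspb1 (−1.99, limma adjusted p = 0.0131) and Bag3 (−0.78, limma adjusted p = 0.0107) passed among 866 genes called. Hspa1b (−0.39), Dnajb1 (−0.08) and Hsph1 (−0.03) had differences smaller than their standard errors, and a p above the threshold does not show that the sexes are alike.

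Hspb1 followed the cardiac marker level of the samples. The mean log2 level of the 16 cardiac markers in controls 1 to 4 was 11.55, 11.68, 10.24 and 11.98, that in mutants 1 to 3 was 11.76, 10.44 and 10.90, and the order of Hspb1 was the same in all 7 embryos. Over these 7 libraries Pearson's r was 0.946 (exact permutation p = 0.000397, adjusted over 10 members 0.00397). Spearman's rho was 1 (exact permutation p = 0.000397, the smallest possible for rho, adjusted 0.00397). Without control 3 and mutant 2, the 2 embryos farthest from the median, r was 0.922. Because all 3 males had higher cardiac levels than all 4 females, and 4 and 3 samples are too few for r within a sex, sex and cardiac level cannot be told apart here. In bulk samples fewer muscle cells and less RNA per cell cannot be told apart.

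Bag3 gave r = 0.574 (exact permutation p = 0.177, adjusted 0.887) and Hspa1b r = −0.04 (exact permutation p = 0.924, adjusted 0.996). The other 7 members had r between −0.20 and 0.19. Without the same 2 embryos r was 0.834 for Bag3, 0.655 for Hspa1a and 0.217 for Hspa1b, so those values rest on which embryos are included. Of the other small heat shock proteins, Cryab, the lens and muscle crystallin, and Hspb7, a cardiac form, were named after their values were seen. Cryab gave 1254, 1617, 529 and 2043 normalised reads in controls and 1504, 761 and 883 in mutants; Hspb7 gave 1494, 1708, 550.2 and 2158, then 1752, 807 and 978. Both stood lowest in control 3 and highest in control 4, as Hspb1 did. Of the 7 genes on that list, Hspb2 and Hspb8 had the same lowest and highest embryos, Hspb3 was lowest in mutant 2, Hspb6 was highest in control 3 and Hspb11 was lowest in control 4.

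**Figure D3:**
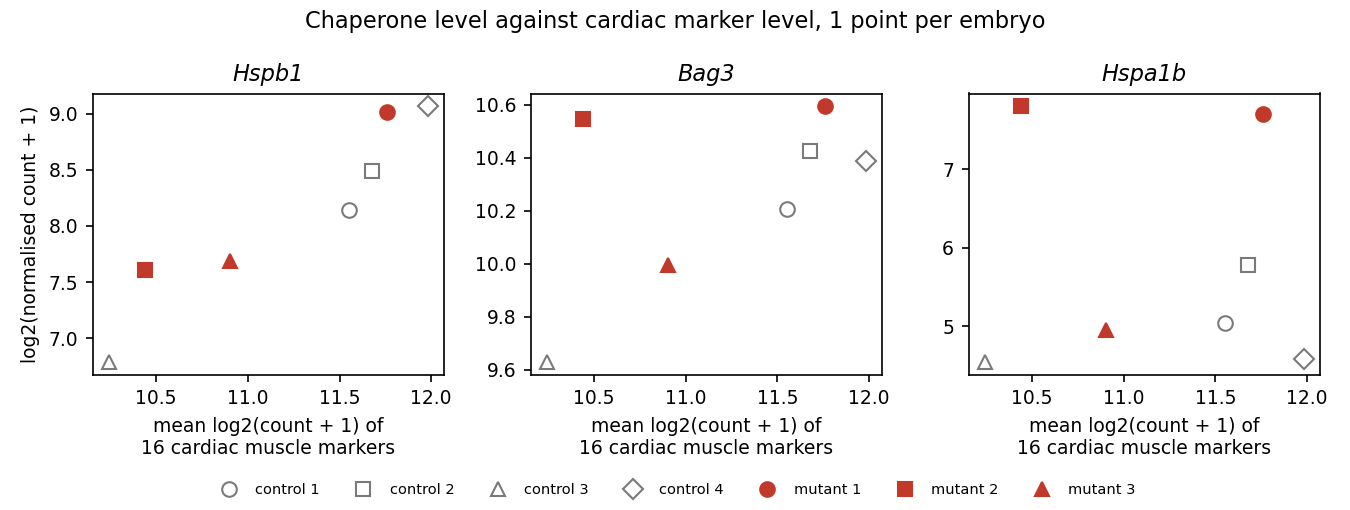
Level of chaperones (log2 of normalised count plus 1) against the mean log2 level of 16 cardiac muscle markers, 1 point per embryo. Hspb1 is higher with the marker level in all 7 embryos (r = 0.946), whereas Hspa1b does not (r = −0.04).

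Other genes of the stress response were read from 11 lists of 124 distinct genes, of which 122 were tested. The lists overlap, so a gene can stand in several list counts, whereas totals over the 122 count each gene once. In limma's fit 0 passed in either direction, 8 had an unadjusted p under 0.05 (beside 3.83% of all genes), and edgeR, DESeq2 and limma-voom called none of them. Their median log2 fold change was 0.04, beside 0.01 for all genes. Above all controls were 51 of 122 in mutant 1, 45 in mutant 2 and 13 in mutant 3. Beside them stand 19.7%, 18.8% and 18.3% of all genes, shares that also stand beside the list counts of genes above all controls. Above all controls in both mutant 1 and mutant 2 were 35 of 122, beside 7.86% of all genes. List counts of genes below all controls stand beside 16.8%, 16.8% and 13.4% of all genes in mutants 1, 2 and 3. Lists for which no such count is printed had at most 1 gene below all controls in any mutant.

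**Figure D4:**
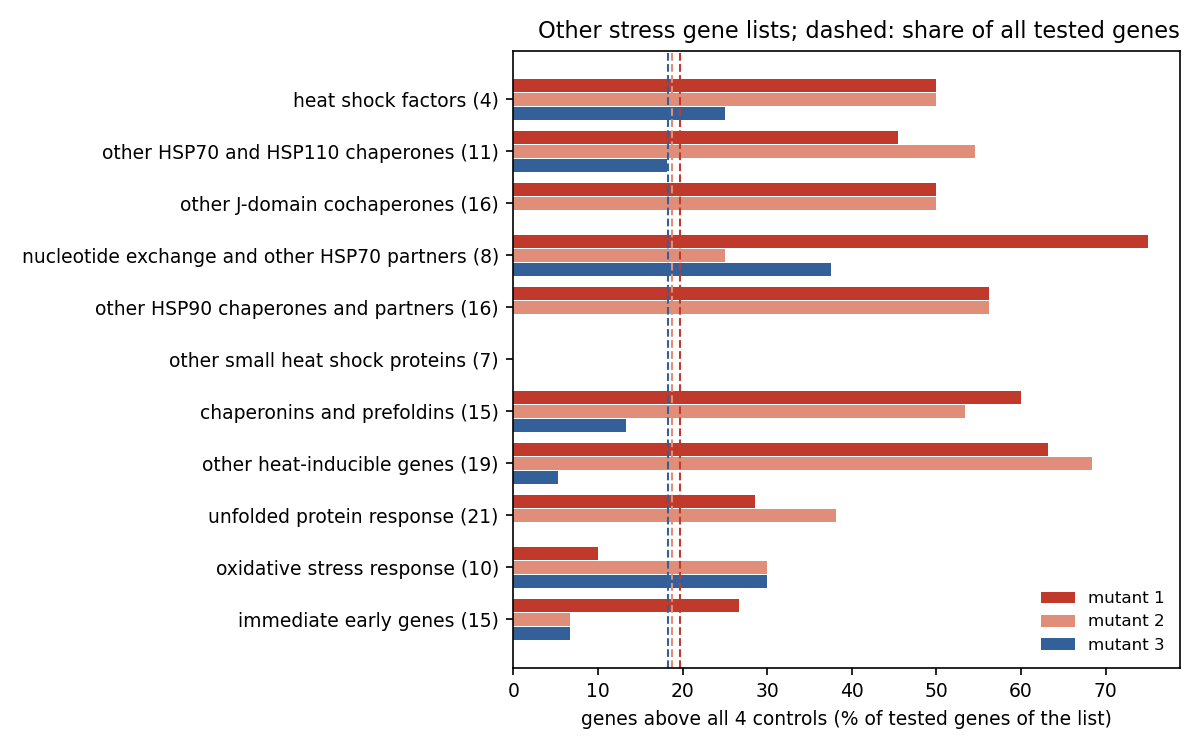
Share of the tested genes of each stress list (number tested in brackets) above all 4 controls, for each mutant; dashed lines give the share of all 15599 genes. In mutants 1 and 2 several chaperone lists lie beyond the dashed lines, in mutant 3 most do not. Some genes stand on several lists, so the bars are not independent.

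The heat shock factors had a median of 0.00 over 4 tested genes. Hsf1, the master regulator, gave 901, 942, 981 and 909.6 normalised reads in controls and 1022, 999 and 1012 in mutants (log2 fold change 0.12, limma adjusted p = 0.967). All 3 mutants lay above all controls by a small margin, beside 3.7% of all genes. Genes of other lists did so too, Hspa9, Hspbp1 and Dedd2 among them. Hsbp1, a binding protein of the heat shock factors, had −0.03 (limma adjusted p = 0.974). Among 16 other HSP90 chaperones and partners (median 0.12), 9 were above all controls in mutant 1, 9 in mutant 2 and 0 in mutant 3. Ahsa2, an HSP90 ATPase activator homologue, gave 398, 381, 329 and 398 in controls and 505, 485 and 393 in mutants (0.29, limma adjusted p = 0.967), and Fkbp4, an HSP90 immunophilin, 0.14 (limma adjusted p = 0.967).

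Among 19 other heat-inducible genes (median 0.10), 12 were above all controls in mutant 1, 13 in mutant 2 and 1 in mutant 3. Below all controls were 1, 3 and 3 of them. Most of these 19 genes also stand on another list. Dedd2, a death effector domain protein, gave 158, 165, 192 and 188 normalised reads in controls and 332, 314 and 204 in mutants (log2 fold change 0.66, SE 0.18, limma adjusted p = 0.967). The 15 chaperonins and prefoldins had 9, 8 and 2 genes above all controls; Hspd1, the mitochondrial chaperonin, gave 9692, 9206, 9421 and 8698 in controls and 10268, 10854 and 9645 in mutants (0.15, SE 0.06, limma adjusted p = 0.967), and Cct5, a subunit of the cytosolic chaperonin, had 0.14 (limma adjusted p = 0.967). The 16 other J-domain cochaperones had 8, 8 and 0, with Dnajb9 at 0.34 and Dnajc7 at 0.10 (both limma adjusted p = 0.967). The 11 other HSP70 and HSP110 chaperones had 5, 6 and 2 above all controls and 3, 0 and 0 below them, with Hspa4, an HSP110 relative, at 0.10 and Hspa9, the mitochondrial HSP70, at 0.07 (both limma adjusted p = 0.967). The 8 nucleotide exchange factors and other HSP70 partners (median 0.04) had 6, 2 and 3 above all controls, so mutant 3 exceeded mutant 2 there, with Hspbp1 at 0.12 and St13 at 0.10 (both limma adjusted p = 0.967). The 7 other small heat shock proteins had 0 in each mutant and a median of −0.28, with Hspb3 at −0.81 and Hspb2 at −0.38 (both limma adjusted p = 0.967).

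The unfolded protein response of the endoplasmic reticulum (21 genes, median 0.05) had 6, 8 and 0 genes above all controls, with Xbp1, its transcription factor, at 0.26 and Dnajb9, a reticulum cochaperone, at 0.34 (both limma adjusted p = 0.967). The oxidative stress list (10 genes, median 0.02) had 1, 3 and 3 genes above all controls and 3, 1 and 1 below them. In it Slc7a11, the cystine transporter, gave control values of 32.0, 39.4, 36.9 and 34.4 and mutant values of 149, 123 and 38.0. As for Hspa1b, mutants 1 and 2 lay above all controls and mutant 3 at the control level. The log2 fold change of Slc7a11 was 1.30 (SE 0.43, limma adjusted p = 0.967), whereas Hmox1, the heme oxygenase, had −0.21 (limma adjusted p = 0.967). The immediate early genes (15 tested, median −0.06) had 4, 1 and 1 above all controls and 2, 4 and 2 below them, with Myc at 0.24 and Btg2 at −0.29 (both limma adjusted p = 0.967).

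The genes most like the members across embryos were ranked by Pearson's r with the mean centred log2 level of Hspa1b, Dnajb1 and Hsph1 over 7 libraries, among 10362 genes averaging at least 100 normalised reads. These r are descriptions, given without a p, because the ranking used the pattern that chose the members. They take no account of the size of a difference. The 10 highest were Mtg1 (0.995), Ubqln1 (0.988), Ahsa1 (0.985), Pdpk1 (0.985), Herpud1 (0.979), Msl1 (0.977), Bahd1 (0.976), Zfp131 (0.976), Pxn (0.976) and Gprasp1 (0.972). Herpud1, an endoplasmic reticulum stress gene, gave 435, 455, 352 and 398 normalised reads in controls and 688, 668 and 357 in mutants. Bahd1 gave 441, 424, 388 and 368, then 608, 619.5 and 431. The 3 most negative were Taz (−0.995), Abca1 (−0.982), a cholesterol exporter at 157 and 163 in mutants 1 and 2 beside 211 to 236 elsewhere, and Ctif (−0.965). Ranked with Hspa1b alone, 7 of the 10 highest were shared. Among the other members r was 0.936 for Hsp90aa1, 0.909 for Hspa1a, 0.788 for Hspa8, 0.735 for Bag3, 0.728 for Hspe1, 0.242 for Hspb1 and 0.211 for Hsp90ab1.

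**Figure D5:**
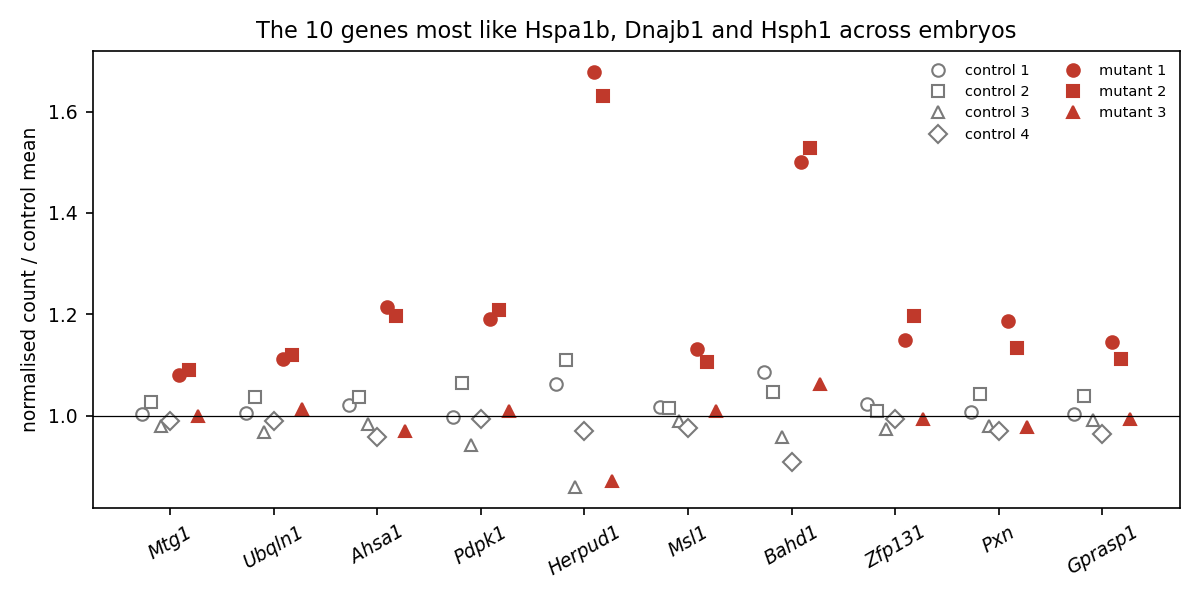
Normalised count over the control mean in each embryo for the 10 genes whose pattern is most like that of Hspa1b, Dnajb1 and Hsph1. Mutants 1 and 2 lie above the controls for all 10 genes, which follows from ranking them on that pattern. The size of the step ranges from 1.08 times for Mtg1 in mutant 1 to 1.68 times for Herpud1.

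In the authors' deposited table of selected genes, 4 of the 10 members are listed, beside 0.991% of all 48526 genes. That total includes 19544 genes without reads, so the share among genes with reads is higher. The p-values there come from the contrast that chose the members. The authors' deposited table gives a ratio of mutant to control means of 4.67 for Hspa1b (DESeq2 p = 0.000141, edgeR p = 0.00163), 6.09 for Hspa1a (DESeq2 p = 0.0253, edgeR p = 0.0208), 1.55 for Dnajb1 (DESeq2 p = 0.00246, edgeR p = 0.00461) and 1.39 for Hsph1 (DESeq2 p = 0.00549, edgeR p = 0.00848). For voom the authors' deposited table gives 0.0360 for Dnajb1 and 0.0402 for Hsph1 and no value for Hspa1a or Hspa1b. It flags Hspa1a in 2 mutants and 0 controls. Its Benjamini-Hochberg value is 0.531 for Hspa1b and 1 for the other 3.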

How the data were processed

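Per the labels' protocols, 20 ng of total RNA entered a polyadenylated RNA library kit that keeps strand, sequenced as paired reads of 130 bases. HISAT2, featureCounts, Subread, DESeq2, edgeR, limma and build GRCm38 appear in the submitters' processing notes, without versions, roles or settings.

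The signal values deposited by the authors are counts divided by 1 size factor per library: all values above 0 (100%) were whole multiples of the library's step within a tolerance of 0.1, which gave back the reads. The authors' tables also hold, per the file headers, group means, a ratio, a p-value, a score (the absolute difference of group means) and detection flags.

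From these, log2(normalised count + 1) was tested with limma 3.58.1 in R 4.3.3 (trended empirical Bayes, no covariates) for genes with at least 10 in at least 3 libraries, and p-values were adjusted by Benjamini-Hochberg over all of them with 0.05 as the threshold. Fold changes on this scale understate low genes. On the recovered reads, edgeR 4.0.16, DESeq2 1.42.0 and limma-voom were alternatives, with other pseudocounts, filters, scalings, covariates and each embryo left out. The limma and edgeR fits were tested on simulated counts with larger changes than most members had. Those tests do not show how smaller changes would fare. RPKM uses GENCODE M21 exon lengths.

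Groups came from the genotype labels. The members and lists were chosen with earlier results of these data known. Named genes are the 10 members, the 2 genes with the smallest p in each list where none passed, the 10 genes most like and 3 least like the pattern, and Hspb7 and Cryab, chosen after their values were seen.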

Additional observations from a re-analysis of the deposited data

Results flagged for a closer look

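Among 28 sets of 4 control values examined for a sample far from the others, 3 held one, where chance gives about 1 in 20. The summed level of the oxidative stress list was 10242 normalised reads in control 3, below the 11209 to 11351 of the other controls. The summed level of the immediate early genes was 4126 in control 4, above the 3479 to 3549.8 of the others. The summed level of the neural tube markers was 7376 in control 3, above the 2158 to 2456 of the others. None of the 10 chaperones had such a value among the controls.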

How the results depend on the processing

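No paired analysis was possible because no label pairs embryos across the groups. Between mutants and controls 2 genes passed in limma's fit, 1 with edgeR, 8 with DESeq2 and 0 with limma-voom. With sex as a covariate 1 passed, with the embryo-number range as a covariate 1, and in female embryos alone 0. Leaving out each embryo in turn gave 1 to 9, with 9 without control 3. The causes were not tested. Female against male controls gave 5 genes, and 1 to 866 with a control left out, with 866 without control 1. No chaperone or other stress gene was called between mutants and controls under any alternative. Moves were measured against the SD of a gene's log2 values in controls, from 0.07 for Hsp90ab1 to 1.08 for Hspa1a. Of 189 alternative log2 fold changes of the members, 178 moved by less than 1 such SD and 11 by more. Where that SD is wide, large moves stay within it, as for Hspa1a at 0.46 without mutant 1. The 11 included Hspa1a with edgeR (2.50) or DESeq2 (2.58), Dnajb1 without mutant 1 (0.43) or mutant 2 (0.44) and Hspa8 in females alone (−0.07). The rest were without mutant 3: Hspa1a (3.27), Hspa1b (2.77), Dnajb1 (0.88), Hsph1 (0.67), Hspa8 (0.43) and Hsp90aa1 (0.25). A filter at 50 normalised reads removed Hspa1a. Leaving out 1 embryo gave 0.04 to 0.41 for Bag3, 0.06 to 0.15 for Hspe1 and −0.47 to 0.30 for Hspb1. The Hspb1 difference changed sign in 6 of 19 alternatives. Depth limits Hspa1a, with 0 to 61 reads, more than any other member.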
